A study of Mus musculus with 4 samples.

Results

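The 10 genes described here encode the machinery that shows peptides from inside a cell on MHC class I molecules. They were chosen by name: the heavy chains H2-K1 and H2-D1, the light chain B2m, the peptide transporter subunits Tap1 and Tap2, the loading factor Tapbp, the immunoproteasome subunits Psmb8, Psmb9 and Psmb10, and the transactivator Nlrc5. They are 10 of 25562 genes to which the deposited transcripts could be assigned, and all 10 were among the 11213 genes abundant enough to be tested. RNA was sequenced from stromal cells of adult C57BL/6 mouse prostate, taken either from proximal ducts, next to the urethra, or from distal ducts, toward the tips of the lobes. In both groups, sorting had removed cells with CD24, CD49f or lineage markers, which the labels do not list, and had kept cells with Sca-1, a surface antigen that many fibroblasts carry. The stated purpose was to find signalling in this stroma. Each region had 2 libraries, numbered 2 and 3 in the labels, which are called distal 2, distal 3, proximal 2 and proximal 3. The labels name no treatment and no altered allele in either region, and give neither the exact age nor the number of mice pooled. No label says that the libraries came from separate animals or what the number stands for, so the p-values reflect only how far these libraries differ, which may be technical.

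MHC class I molecules are made by nearly all nucleated cells. Proteasomes cut cytosolic proteins into peptides, the Tap1 and Tap2 dimer carries them into the endoplasmic reticulum, and tapasin, the product of Tapbp, holds an empty heavy chain and beta-2 microglobulin dimer beside the transporter until a peptide fits, after which the complex travels to the surface for inspection by CD8+ T cells. Interferons are known to raise the genes of this pathway, and Psmb8, Psmb9 and Psmb10 then replace the constitutive subunits Psmb5, Psmb6 and Psmb7 in the catalytic core, while Nlrc5 is recruited to class I promoters by factors bound at their conserved upstream elements.

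Values are FPKM, fragment numbers scaled to transcript length and to the mapped total, added up over the transcripts of a gene, so levels may be compared between genes. From 10107 to 11400 genes per library reached 1 FPKM. Depth was not given, and the deposited coverage per FPKM had medians of 5.22 to 6.34. Over all tested genes the libraries of the same number were the closest (Pearson r of 0.952 for both numbers), closer than libraries of the same region (0.911 for distal and 0.869 for proximal), so every result below is given by region and by number. Fibroblast markers summed to 5200 to 6452 FPKM per library, including 687 to 1016 FPKM of Ly6a, the gene of the sorted antigen Sca-1. Smooth muscle and pericyte markers summed to 158 to 325 FPKM and endothelial markers to 20.1 to 25.0 FPKM. The 12 leukocyte markers, which matter here because leukocytes are rich in class I transcripts, summed to 4.31 to 9.04 FPKM. Cd3e was listed at 0 in all 4 libraries and Ptprc at no more than 0.120 FPKM. Cd52 measured 0.211 FPKM in distal 2, 0.0936 in distal 3, 0.814 in proximal 2 and 3.98 in proximal 3. Laptm5 went the other way, at 0.465, 0.418, 0.263 and 0.0739 FPKM. The 2 leukocyte markers abundant enough to be tested, Lyz2 and Cd68, were not called for region or number. The 10 epithelial markers summed to 41.9 FPKM in distal 2, 103 in distal 3, 62.6 in proximal 2 and 457 in proximal 3. Krt5 reached 1 FPKM in number 3 libraries only and so had to differ by number. The other 8 epithelial markers tested were all called higher in number 3 libraries, beside 12.6% of all genes. All 9 also had a higher proximal than distal mean on the log2 scale (median 1.09, 0 called). The epithelial sum was thus higher in number 3 libraries within each region and in proximal libraries within each number, as were some class I genes below. It was also higher in distal 3 than in proximal 2. Of the 9 tested markers, 2 (Krt19 and Cldn7) had both proximal libraries above both distal ones, beside 12.9% of all genes. The part of these markers in the class I values was not tested.

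Of the 10 genes, 7 lie on chromosome 17, in or beside the major histocompatibility complex (GENCODE M21 on GRCm38/mm10, gene spans). Tapbp is at chr17:33915899-33929292 (plus strand), H2-K1 at chr17:33996017-34000347 (minus), Psmb9 at chr17:34181987-34187764 (minus), Tap1 at chr17:34187553-34197225 (plus), Psmb8 at chr17:34197721-34201454 (plus), Tap2 at chr17:34203527-34216321 (plus) and H2-D1 at chr17:35262730-35267499 (plus). B2m is at chr2:122147686-122153083 (plus), Psmb10 at chr8:105935735-105938444 (minus) and Nlrc5 at chr8:94434356-94527272 (plus). Psmb9 and Tap1 stand head to head, with RefSeq transcript starts 226 bases apart, so their upstream sequence is shared. The library kit did not mark strand, but the deposited Psmb9 and Tap1 transcripts end and start at these RefSeq positions and do not overlap.

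Promoter windows were read from a RefSeq table (build GRCm38.p6), which held 8 of the 10 genes (not Tap2 and Nlrc5). Each window runs from 250 bases before to 50 bases after the start, and 4 motifs were searched on both strands: GAAANNGAA (interferon-stimulated response type), TTCNNNGAA (GAS type), GGGNNTTCC (kappa B) and TGACG (the core of the cAMP response element). The 5 upstream sequences below are shown because they belong to both heavy chains, the light chain and the members of the transporter and proteasome groups with the largest number difference. Each is the 250 bases before the start, written 5′ to 3′ on the gene's strand, with motif matches in capitals. They lie at chr17:34000334-34000583 (H2-K1, minus strand, the start used by the deposited transcript), chr17:35262844-35263093 (H2-D1, plus), chr2:122147437-122147686 (B2m, plus), chr17:34187306-34187555 (Tap1, plus) and chr17:34197945-34198194 (Psmb8, plus).
H2-K1: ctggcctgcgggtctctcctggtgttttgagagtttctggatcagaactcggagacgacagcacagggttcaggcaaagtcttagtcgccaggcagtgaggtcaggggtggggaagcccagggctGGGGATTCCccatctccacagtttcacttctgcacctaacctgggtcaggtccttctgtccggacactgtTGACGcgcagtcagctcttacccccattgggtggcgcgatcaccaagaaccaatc
H2-D1: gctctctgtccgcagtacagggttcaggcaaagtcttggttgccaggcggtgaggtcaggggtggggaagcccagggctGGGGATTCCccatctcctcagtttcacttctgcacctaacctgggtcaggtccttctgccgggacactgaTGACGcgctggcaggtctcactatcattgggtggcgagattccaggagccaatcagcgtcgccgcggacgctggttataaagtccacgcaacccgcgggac
B2m: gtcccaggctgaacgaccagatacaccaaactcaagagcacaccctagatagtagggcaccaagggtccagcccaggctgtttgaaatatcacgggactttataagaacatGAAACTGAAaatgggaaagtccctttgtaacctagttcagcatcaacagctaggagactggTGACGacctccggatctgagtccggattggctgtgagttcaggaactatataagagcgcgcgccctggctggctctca
Tap1: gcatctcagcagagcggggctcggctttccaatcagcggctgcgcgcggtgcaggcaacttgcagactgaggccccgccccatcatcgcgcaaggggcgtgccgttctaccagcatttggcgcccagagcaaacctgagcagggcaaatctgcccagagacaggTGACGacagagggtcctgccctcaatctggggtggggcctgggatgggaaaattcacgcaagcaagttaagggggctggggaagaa
Psmb8: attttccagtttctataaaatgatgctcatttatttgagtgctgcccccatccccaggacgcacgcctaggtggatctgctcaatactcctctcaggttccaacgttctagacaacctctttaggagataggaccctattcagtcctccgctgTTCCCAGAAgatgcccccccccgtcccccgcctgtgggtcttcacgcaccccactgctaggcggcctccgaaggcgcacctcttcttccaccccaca

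H2-K1 and H2-D1 each held a kappa B match followed by TGACG, with 61 bases between the matches in both genes. The kappa B match began at base -125 in H2-K1 and at -171 in H2-D1, counted from the transcript start. B2m held an interferon-stimulated response type match at -139 to -131 and TGACG at -78 to -74. Tap1 held TGACG at -86 to -82, which is the same site as the match at -144 to -140 on the opposite strand of Psmb9. Psmb8 held a GAS match at -97 to -89, a motif that matches there on both strands. Among all 32851 promoter windows in the table, 5.82% held the kappa B motif, 8.56% the interferon-stimulated response type motif, 8.3% the GAS motif and 20.8% TGACG. These matches describe letters only, and a window without a match says nothing about the factor. The motifs did not overlap each other in these windows.

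**Figure D1:**
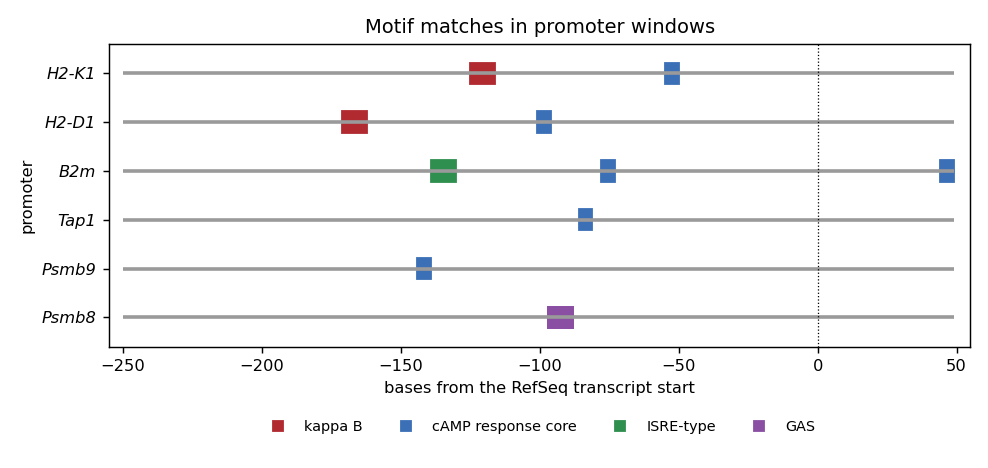
Positions of motif matches (coloured boxes) along the promoter windows of the 6 genes with a match; the x axis gives bases from the RefSeq transcript start (dotted line) and each row is 1 gene. The kappa B and TGACG boxes of H2-K1 and H2-D1 have the same spacing of 61 bases, and the window of B2m also holds a TGACG match on the opposite strand after the start.

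The class I genes spanned a wide range of levels in this stroma. B2m averaged 1912 FPKM over the 4 libraries, H2-D1 650 FPKM, H2-K1 333 FPKM and Tapbp 164 FPKM, and this order held in all 4 libraries without overlap. Tap1 (38.0 FPKM), Psmb8 (30.2 FPKM) and Tap2 (26.5 FPKM) followed, with ranges that overlapped from each to the next. Psmb10 averaged 14.8 FPKM, below Tap2 in all 4 libraries. Psmb9 averaged 4.90 FPKM and Nlrc5 1.96 FPKM, and their ranges overlapped. The heavy and light chains were thus far more abundant than the transporter, the immunoproteasome and the transactivator.

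**Figure D2:**
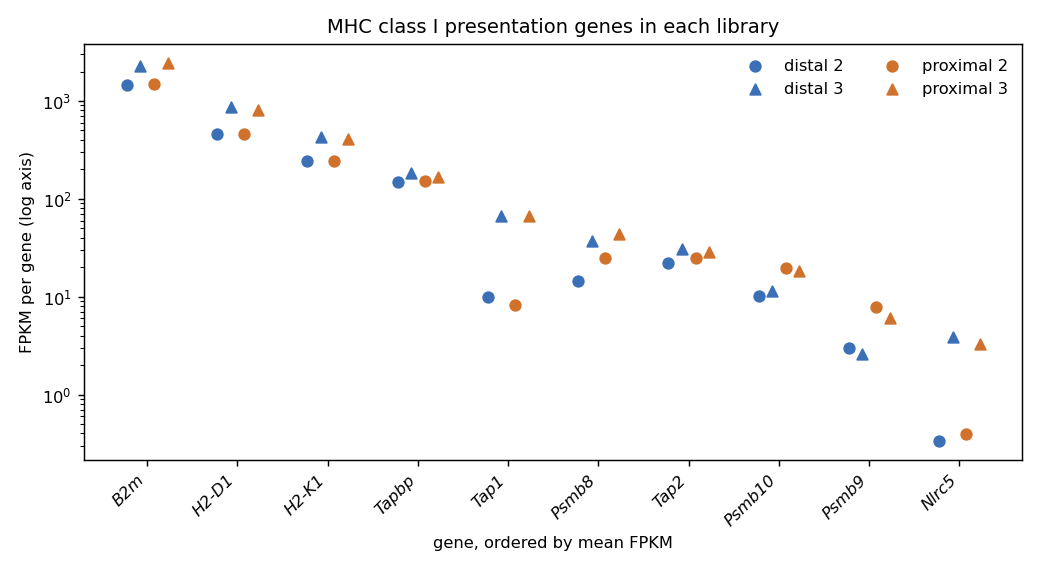
FPKM per gene on a log axis for the 10 class I genes, ordered by mean; each point is 1 library, with colour for the region (blue distal, orange proximal) and shape for the library number (circle 2, triangle 3). Circles sit below triangles in both regions for all genes except Psmb9 and Psmb10, and orange lies above blue in both numbers without overlap for Psmb9 and Psmb10 alone.

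Which of these genes differed between proximal and distal stroma was asked with limma on log2(FPKM + 1), a scale on which low genes show a smaller difference than their FPKM ratio. 0 of the 10 genes passed an adjusted p of 0.05 for region, as did 0% of all 11213 tested genes in either direction, and the adjusted p of every class I gene was 0.999909. With the library number as a second term, 450 of all genes were called, and Psmb9 was the only class I gene among them. At an unadjusted p under 0.05 there was 1 class I gene, Psmb9, beside 3.16% of all genes. Both proximal libraries lay above both distal ones for 2 of the 10, Psmb9 and Psmb10, beside 12.9% of all genes. Both distal libraries lay above both proximal ones for 0 of the 10, beside 8.67% of all genes. The median difference of proximal minus distal over the 10 genes was 0.00 on the log2 scale, with 5 higher and 5 lower, while over all genes it was 0.09 with 60.33% higher. In bulk samples, fewer cells of a type and less RNA per cell cannot be told apart.

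The number comparison, which was chosen after the values were seen, used the same scale with region as a second term in limma. Nlrc5 reached the minimum of 1 FPKM in its number 3 libraries only and so had to differ by number, and it is left out of the counts that follow. Of the other 9 genes, 4 were called higher in number 3 libraries at an adjusted p under 0.05 (H2-K1, H2-D1, Tap1 and Psmb8), beside 12.6% of all genes, and 0 lower, beside 36.8% of all genes. Both number 3 libraries lay above both number 2 libraries for 7 of the 9, beside 20.3% of all genes, and below them for 0 of the 9, beside 50.3% of all genes. The median difference of number 3 minus number 2 was 0.68 over the 9 genes (0.73 with Nlrc5) and -0.33 over all genes. Scaling the libraries by the median ratio brings the median of all genes to 0.00. The calls over all genes then split into 22.5% higher and 19.7% lower, and the same 4 genes and Tap2 were called. With the number as the only term, Tap1 alone of the 9 genes was called. With any 1 library left out, 1 of the numbers kept only 1 library, and the Tap1 difference spanned 2.64 to 2.88. The 2 libraries of each number come from different regions, and what else differed between the numbers cannot be told apart from them.

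**Figure D3:**
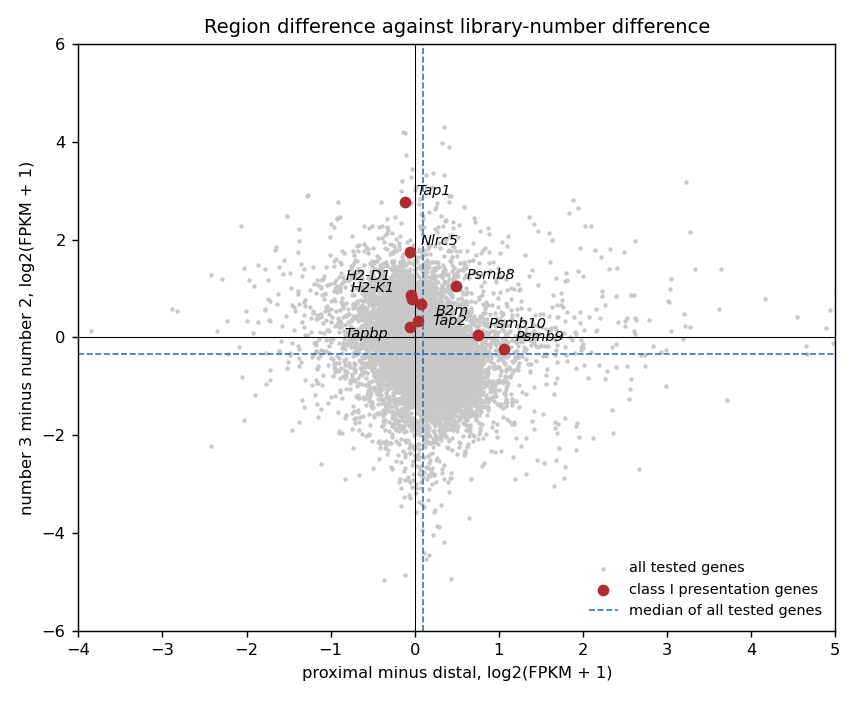
Each point is 1 tested gene, with its proximal minus distal difference on the x axis and its number 3 minus number 2 difference on the y axis, both in log2(FPKM + 1); red points are the 10 class I genes, grey points all tested genes (6 lie outside the axes), and dashed lines the medians of all genes. Tap1 and Nlrc5 stand highest on the y axis at 2.76 and 1.74, and Psmb9 and Psmb10 lie to the right at 1.07 and 0.76 with number differences near 0.

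H2-K1 and H2-D1, the classical class I heavy chains of this strain, had similar means in both regions and were higher in the number 3 libraries. The distal and proximal means were 339 ± 133 and 328 ± 117 FPKM for H2-K1, and 664 ± 294 and 636 ± 244 FPKM for H2-D1 (SD, n = 2 each). H2-K1 measured 244.7 FPKM in distal 2, 433 in distal 3, 244.6 in proximal 2 and 411 in proximal 3. The regions overlapped, and both number 3 libraries were higher than both number 2 libraries, which were nearly equal. Proximal minus distal came to -0.04 ± 0.45 (SE, log2 scale, limma 95% interval -1.18 to 1.10). The number difference was 0.78 ± 0.23 (SE, log2 scale), with an adjusted p of 0.0300 (limma). H2-K1 was 1.77 times as high in distal 3 as in distal 2, and 1.68 times as high in proximal 3 as in proximal 2.

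H2-D1 measured 456 FPKM in distal 2, 872 in distal 3, 463 in proximal 2 and 808 in proximal 3. Its number 3 libraries were again the high ones in both regions, and distal and proximal values overlapped. The region difference was -0.04 ± 0.49 (SE, log2 scale, interval -1.28 to 1.19), and the number difference was 0.87 ± 0.28 (SE, log2 scale; adjusted p = 0.0381, limma). The H2-D1 ratio of number 3 to number 2 was 1.91 in distal and 1.75 in proximal libraries. Coding sequences of H2-K1 and H2-D1 are 92% identical over 1074 aligned bases in the annotation, so fragments may be divided between these genes and their relatives, and their separate levels are uncertain.

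The H2-K1 sum held 2 expressed transcript models. A long model of 1646 bases over the whole gene was given 191 FPKM in distal 2, 433 in distal 3, 182 in proximal 2 and 411 in proximal 3. A short model of 1596 bases at chr17:33996033-33997755 was given 53.7 FPKM in distal 2 and 62.5 in proximal 2, which is 21.9% and 25.6% of the gene. It was listed at 0 in distal 3 and proximal 3. The short model therefore appeared in the number 2 libraries and in neither number 3 library, in both regions alike. The 2 models overlap, and the authors' quantification divides fragments between overlapping models.

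B2m encodes beta-2 microglobulin, the light chain that every class I molecule needs. It measured 1455 FPKM in distal 2, 2258 in distal 3, 1484 in proximal 2 and 2452 in proximal 3. Number 3 libraries were higher in both regions, by ratios of 1.55 and 1.65, and the regions overlapped. The region difference was 0.07 ± 0.45 (SE, log2 scale, interval -1.06 to 1.21), and the number difference of 0.68 ± 0.39 (SE, log2 scale) did not pass (adjusted p = 0.184, limma).

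Tap1 had the largest number difference of the 10 genes. It measured 9.87 FPKM in distal 2, 66.8 in distal 3, 8.23 in proximal 2 and 67.0 in proximal 3. Within each number the regions were close, and both number 3 libraries stood far above both number 2 libraries, by 6.76 times in distal and 8.14 times in proximal stroma. The number difference was 2.76 ± 0.17 (SE, log2 scale; adjusted p = 0.000309, limma), and the region difference was -0.12 ± 1.25 (SE, log2 scale, interval -3.28 to 3.05). That interval is the widest of the 10, since the region fit counts the gap between the numbers as spread. Of 5 transcript models listed for Tap1, the one of 2950 bases carried the whole value in 3 libraries and 88.3% of it in proximal 2, where a model of 4089 bases held the other 11.7%.

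Tap2, the partner of Tap1 in the transporter, had a smaller number difference. It measured 21.97 FPKM in distal 2, 30.4 in distal 3, 24.8 in proximal 2 and 28.7 in proximal 3. Its number 3 libraries were the higher ones but by ratios of 1.38 and 1.16 only, and the regions overlapped. The number difference was 0.33 ± 0.17 (SE, log2 scale; adjusted p = 0.157, limma) and the region difference 0.04 ± 0.35 (SE, log2 scale, interval -0.85 to 0.93). Tap1 thus lay below Tap2 in both number 2 libraries and above it in both number 3 libraries.

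Tapbp, which encodes tapasin, varied least between the numbers among the 8 genes that were higher in number 3 libraries. It measured 150 FPKM in distal 2, 186 in distal 3, 154 in proximal 2 and 167 in proximal 3. The number difference was 0.21 ± 0.20 (SE, log2 scale; adjusted p = 0.408, limma), and the region difference was -0.06 ± 0.31 (SE, log2 scale, interval -0.83 to 0.72). The regions overlapped. Of its 2 transcript models, the one of 2747 bases took 56.0% to 59.1% of the gene's FPKM in the 4 libraries.

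The immunoproteasome subunits differed in which libraries were high. Psmb8, which encodes the beta5i subunit, measured 14.6 FPKM in distal 2, 37.1 in distal 3, 25.0 in proximal 2 and 44.1 in proximal 3. Proximal was the higher region within each number, by 0.74 (number 2) and 0.24 (number 3) on the log2 scale, but distal 3 lay above proximal 2, so the regions overlapped. Its region difference came to 0.49 ± 0.56 (SE, log2 scale, interval -0.94 to 1.92), and the number difference was 1.04 ± 0.19 (SE, log2 scale; adjusted p = 0.00634, limma). Psmb8 was 2.55 times as high in distal 3 as in distal 2 and 1.77 times as high in proximal 3 as in proximal 2.

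Psmb9, which encodes beta1i and shares its upstream sequence with Tap1, had another order of libraries than Psmb8. Proximal was the higher region within each number for both genes. Psmb9 measured 2.97 FPKM in distal 2, 2.62 in distal 3, 7.90 in proximal 2 and 6.10 in proximal 3. Both proximal libraries lay above both distal ones, 2.66 times within number 2 and 2.33 times within number 3 (2.80 ± 0.25 FPKM in distal and 6.998 ± 1.27 in proximal; SD, n = 2 each). For Psmb9 the region difference was 1.07 ± 0.41 (SE, log2 scale, interval 0.03 to 2.11), with an unadjusted p of 0.0460 and an adjusted p of 0.999909 (limma). With the library number as a second term the adjusted p for region was 0.0338 (limma), which passes. The Psmb9 number difference was -0.23 ± 0.19 (SE, log2 scale; adjusted p = 0.351, limma), against 2.76 for its neighbour Tap1.

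Psmb10, which encodes beta2i, resembled Psmb9 in its order of libraries. It measured 10.1 FPKM in distal 2, 11.5 in distal 3, 19.4 in proximal 2 and 18.3 in proximal 3. Both proximal libraries lay above both distal ones, by 1.92 times within number 2 and 1.596 times within number 3. For Psmb10 the region difference was 0.76 ± 0.35 (SE, log2 scale, interval -0.13 to 1.64; unadjusted p = 0.0799, limma). The Psmb10 number difference was 0.04 ± 0.18 (SE, log2 scale; adjusted p = 0.858, limma). The summed epithelial markers were also higher in proximal libraries within each number (41.9 and 103 FPKM in sum in distal 2 and distal 3, against 62.6 and 457 in proximal 2 and proximal 3), and their part in the Psmb9 and Psmb10 values was not tested.

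Set beside the constitutive subunit that each one replaces, the immune subunits made up different shares of the pair. Psmb8 was 25.5% of the summed FPKM of Psmb8 and Psmb5 in distal 2, 53.9% in distal 3, 36.9% in proximal 2 and 57.7% in proximal 3. Psmb8 was therefore the more abundant of that pair in both number 3 libraries and the less abundant in both number 2 libraries. Psmb9 was 3.04% of Psmb9 and Psmb6 in distal 2, 2.91% in distal 3, 7.94% in proximal 2 and 5.94% in proximal 3. Psmb10 was 16.7% of Psmb10 and Psmb7 in distal 2, 16.2% in distal 3, 31.9% in proximal 2 and 23.9% in proximal 3. Psmb6 and Psmb7 remained the more abundant of their pairs in all 4 libraries. Psmb5 itself measured 42.6, 31.8, 42.7 and 32.3 FPKM in distal 2, distal 3, proximal 2 and proximal 3, Psmb6 94.8, 87.5, 91.6 and 96.6 FPKM, and Psmb7 50.2, 59.2, 41.4 and 58.1 FPKM. Of these 3 constitutive genes, 0 passed for region or for number, while by number 12.6% of all genes were called higher and 36.8% lower.

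**Figure D4:**
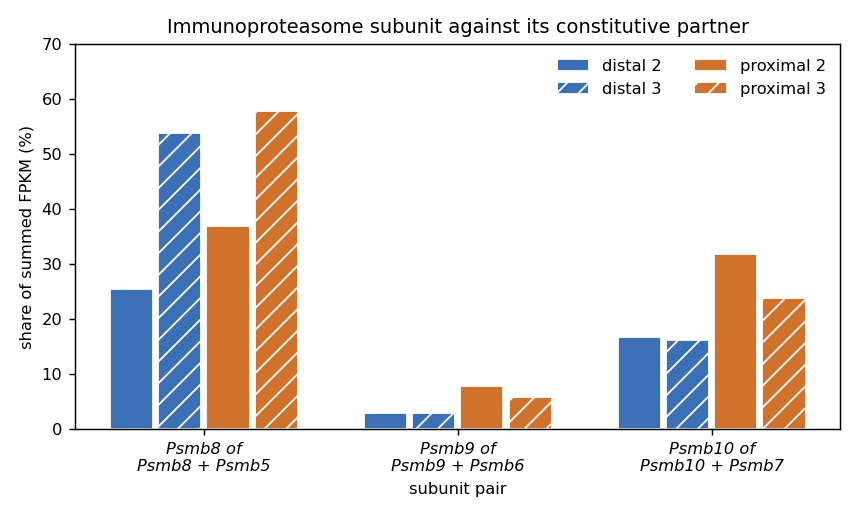
Share of each immunoproteasome subunit in the summed FPKM of itself and its constitutive partner, in percent; each bar is 1 library (blue distal, orange proximal, hatched for number 3). The Psmb8 share is highest in the hatched bars, at 53.9% and 57.7%, while the Psmb9 and Psmb10 shares are highest in the orange bars.

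Nlrc5 encodes the transactivator of class I genes and was the least abundant of the 10. It measured 0.336 FPKM in distal 2, 3.85 in distal 3, 0.392 in proximal 2 and 3.28 in proximal 3. Both number 2 libraries lay under the minimum of 1 FPKM, so Nlrc5 was tested only through its number 3 libraries and had to differ by number. The ratio of number 3 to number 2 was 11.5 in distal and 8.36 in proximal libraries, with a difference of 1.74 ± 0.20 (SE, log2 scale). Its region difference was -0.06 ± 0.85 (SE, log2 scale, interval -2.21 to 2.09). Nlrc5 had 2 transcript models with a value, and both begin inside the annotated gene span. The one of 6945 bases, from chr8:94472763, carried the whole value in distal 2 and distal 3, 31.5% in proximal 2 and 77.8% in proximal 3. A shorter one of 3755 bases, from chr8:94475695, held the rest.

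Across the 10 genes together, the typical gap between libraries was smaller within a number than between the numbers. Nlrc5, which had to differ by number, is included. Over all tested genes, too, the libraries of the same number were the closest (Pearson r of 0.952 for both numbers). The median absolute difference on the log2 scale was 0.114 between the regions within number 2 and 0.137 within number 3. Between the numbers it was 0.728 in distal and 0.734 in proximal stroma. Summed over the 10 genes, class I transcripts reached 2365 FPKM in distal 2, 3901 in distal 3, 2431 in proximal 2 and 4005 in proximal 3. B2m makes up most of these sums.

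The genes whose library profile was most like the median profile of the 10 were Gm7030, Pnpla2, 4932438A13Rik, Ano6 and Rfk. Likeness was the Euclidean distance over 4 libraries between centred log2(FPKM + 1) values, among 5148 genes with a mean of at least 10 FPKM. The distances were 0.0526 for Gm7030, 0.0739 for Pnpla2, 0.0740 for 4932438A13Rik, 0.106 for Ano6 and 0.115 for Rfk. Gm7030 measured 7.88 FPKM in distal 2, 14.9 in distal 3, 9.14 in proximal 2 and 15.0 in proximal 3.

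Other genes of the pathway were read from lists chosen for their function. Among 22 other class I heavy chains and class I-like genes, 11 were tested, with 0 called for region, 7 higher in proximal and 4 in distal libraries, and a median region difference of 0.17. By number, among 10 of these genes, 1 was called higher in number 3 libraries (H2-Q4) and 3 lower, beside 12.6% and 36.8% of all genes. Their median was -0.22, beside -0.33 over all genes. The other tested gene, H2-Q6, reached 1 FPKM in number 3 libraries only and had to differ. H2-Q4 measured 5.94, 15.4, 6.11 and 14.4 FPKM in distal 2, distal 3, proximal 2 and proximal 3 (number difference 1.17, adjusted p = 0.00370, limma). H2-Q6 was listed at 0 in both number 2 libraries and at 18.6 and 15.7 FPKM in distal 3 and proximal 3. H2-Q7, whose coding sequence is 95.4% identical to that of H2-Q6, was listed at 18.6 FPKM in distal 3 and at 0 in the others, so the separate values of these copies are uncertain. The 3 genes called lower in number 3 libraries were H2-M3, which presents formylated peptides, Mr1, which presents vitamin B metabolites, and Hfe, which takes part in iron sensing. H2-M3 measured 13.1, 9.23, 16.9 and 10.7 FPKM, with a number difference of -0.53 (adjusted p = 0.0426, limma), beside -0.53 for Mr1 and -0.59 for Hfe. H2-T23, the mouse Qa-1 gene, measured 41.1, 52.1, 60.1 and 61.4 FPKM, with a region difference of 0.38 that did not pass. Both proximal libraries lay above both distal ones for H2-T23 and H2-Q10, 2 of the 11 tested, beside 12.9% of all genes. The largest region differences of this list were 0.57 for Hfe, 0.54 for H2-Q10 and 0.38 for H2-T23.

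Of 11 genes for loading and trimming in the endoplasmic reticulum, 10 were tested and Ganab was left out for a failed estimate. 0 were called for region or for number, while by number 12.6% of all genes were called higher and 36.8% lower. Between regions, 3 were higher in proximal and 7 in distal libraries, and the medians were -0.14 for region and 0.20 for number. The largest region differences were 0.55 for the tapasin relative Tapbpl, -0.43 for the aminopeptidase Lnpep and 0.37 for the aminopeptidase Erap1. Tapbpl measured 6.54, 8.398, 12.3 and 10.5 FPKM in distal 2, distal 3, proximal 2 and proximal 3, and Erap1 measured 7.89, 8.42, 11.8 and 9.91 FPKM. Both of these had proximal libraries above distal ones without overlap, and 2 others, the chaperone Calr and Lnpep, had distal libraries above proximal ones. These are 2 of 10 in each direction, beside 12.9% and 8.67% of all genes.

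All 17 other proteasome subunits, assembly factors and activators were tested, with 0 called for region (12 higher in proximal, 5 in distal, median 0.09). By number, Psmb2 and Psme3 were called higher and Psmf1 lower in number 3 libraries, beside 12.6% and 36.8% of all genes. The median over the list was 0.05, beside -0.33 over all genes. Psme1, the alpha subunit of the interferon-inducible PA28 activator, measured 36.0, 30.9, 45.4 and 50.5 FPKM in distal 2, distal 3, proximal 2 and proximal 3, the largest region difference of the list at 0.51. Psme2, its beta subunit, measured 3.27, 4.66, 4.06 and 5.74 FPKM, with a number difference of 0.41 that did not pass (adjusted p = 0.113, limma). The number differences of the 17 ran from -0.70 for Psmf1 to 0.63 for Psmb2, below the 1.04 of Psmb8.

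All 25 genes of class I transcription and interferon gamma signalling were tested. 0 were called for region (7 higher in proximal, 18 in distal, median -0.18), and the largest region differences were -0.83 for Rela, -0.69 for Nfkb1 and -0.67 for Jak1. By number, 5 were called higher in number 3 libraries (Irf8, Stat2, Irf9, Atf1 and Nfkb1) and 6 lower (Irf1, Socs3, Jak2, Ifngr1, Rela and Rfx5), beside 12.6% and 36.8% of all genes, and the median was -0.19, beside -0.33 over all genes. Irf1, a factor that binds class I and Tap1 promoters, measured 209, 67.8, 253 and 124 FPKM in distal 2, distal 3, proximal 2 and proximal 3. Irf1 was thus lower in number 3 libraries, where the class I genes were higher, by -1.31 on the log2 scale (adjusted p = 0.00522, limma). Stat2, a subunit of the complex activated by type I interferon, measured 16.7, 64.3, 18.8 and 44.9 FPKM (number difference 1.55, adjusted p = 0.00278, limma). Socs3, a feedback inhibitor of cytokine receptors, measured 544, 170, 702 and 221 FPKM.

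Among 30 interferon response genes outside presentation, 29 were tested. Mx1 reached 1 FPKM in number 3 libraries only and had to differ. Of the other 28, 26 were called higher in number 3 libraries and 0 lower, beside 12.6% and 36.8% of all genes. Their median number difference was 2.28, beside -0.33 over all genes. Isg15, a ubiquitin-like modifier, measured 35.8 FPKM in distal 2, 302 in distal 3, 35.4 in proximal 2 and 312 in proximal 3. Iigp1, an immunity-related GTPase, measured 33.3, 319, 31.0 and 323 FPKM in the same order. Ifit1, an RNA-binding antiviral protein, had the largest number difference at 4.29 (adjusted p = 0.000309, limma). For region, 0 of the 29 were called, with 18 higher in proximal and 11 in distal libraries and a median of 0.07. The number differences of these genes ran from 0.32 to 4.29, beside 2.76 for Tap1, 1.74 for Nlrc5 and 1.04 or less for the other 8 class I genes. Of 11 class II presentation genes, 5 were tested and 0 were called for region or number. By number, 12.6% of all genes were called higher and 36.8% lower. Between regions, 1 was higher in proximal and 4 in distal libraries. Region differences were largest for Cd74 (-0.99), H2-DMb1 (0.85) and H2-Aa (-0.51). H2-DMb1 reached 1 FPKM in proximal libraries only and so had to differ by region. Cd74, the class II invariant chain, measured 9.56, 5.67, 2.58 and 3.96 FPKM, and the class II transactivator Ciita did not exceed 0.155 FPKM.

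**Figure D5:**
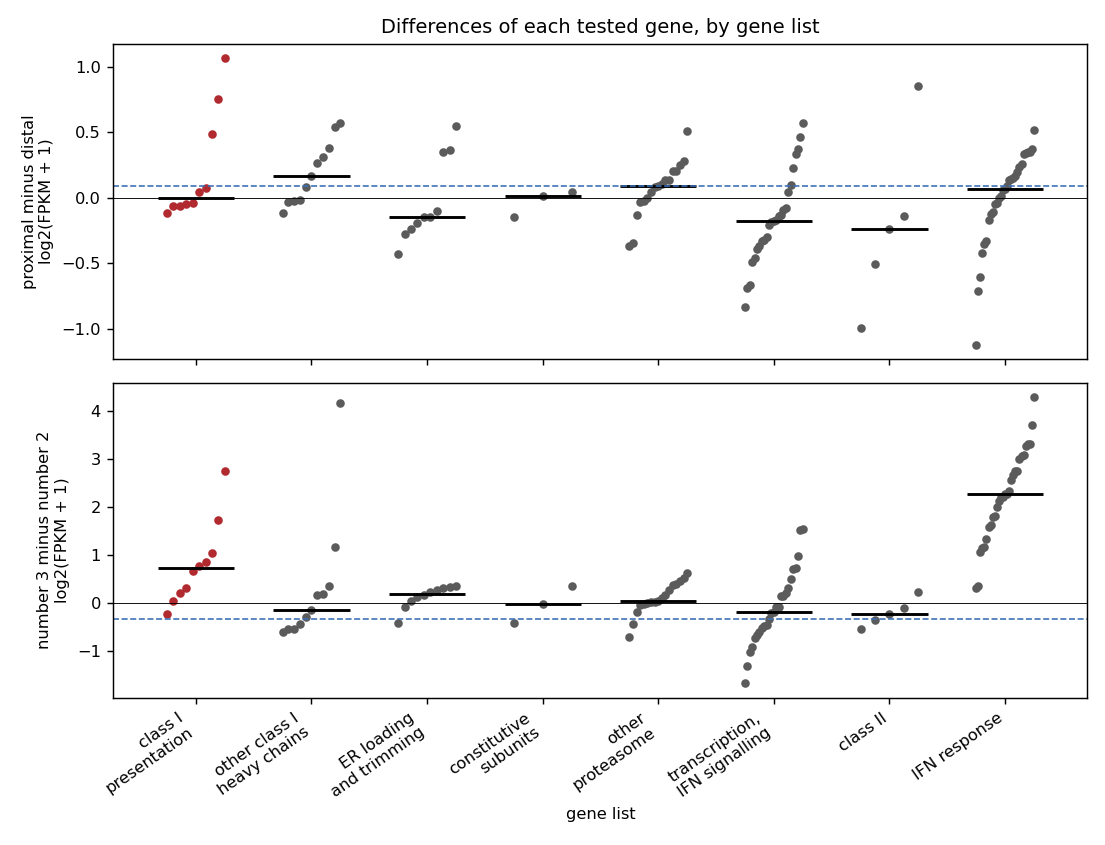
Differences of every tested gene in each list, proximal minus distal (top) and number 3 minus number 2 (bottom), in log2(FPKM + 1); points are genes sorted within their list, black bars the list medians, dashed lines the medians of all tested genes, and red points the 10 class I genes. The interferon response genes lie above 0 in the bottom panel with a median of 2.27 over all 29, the class I genes have a median of 0.73, and the region medians of all 8 lists lie between -0.24 and 0.17.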

How the data were processed

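Per the labels' protocols, cDNA was made with the SMART-Seq v4 kit, which amplifies by PCR. Tools listed in the submitters' processing notes are Cufflinks 0.0.6, TopHat2 0.6 and bcl2fastq 1.8.3, with the mm10 genome. The deposited files give FPKM, its bounds and a coverage signal for 63241 transcripts, per the file headers. FPKM holds no counts, so no count model was used, and overlapping or near-identical transcripts share fragments. The deposited bounds spread by a median of 13.8% to 14.81% either way for transcripts of 1 to 10 FPKM and cover estimation error only.

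Transcripts were joined by identifier, named by position and length on GENCODE M21 (86.72% named, holding 96.15% of FPKM) and summed per gene. Genes with a failed estimate were left out, and testing required 1 FPKM or more in any 2 of the 4 libraries. The test was limma 3.58.1 (R 4.3.3) on log2(FPKM + 1), two-sided, with a mean trend, region as the only term and Benjamini-Hochberg adjustment over 11213 genes. With 2 libraries per region, the smallest two-sided p of an exact permutation test is 0.333. The fit was tested on simulated data with independent noise and no number difference. That check does not show how the region fit performs on these libraries, which differ by number. Python 3.11.15 was used for naming, motifs and plots.

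The members and lists were chosen with earlier results of these data known. The genes named were all members, of each list those called or the 3 with the largest region difference, genes fixed by role (1 is not reported here), and the 5 nearest profiles; Tapbpl, Erap1, Stat2, Ciita, H2-Q7, Isg15, Iigp1 and Ifit1 were given values as examples, some chosen after their values were seen.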

Additional observations from a re-analysis of the deposited data

How the results depend on the processing

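Over the alternatives that keep all 4 libraries (pseudocount 0.1, other filters, scalings, naming, transcript choice, no mean trend, the library number as a replicate block), 86 of 89 region differences of single class I genes kept their direction and their side of the threshold. Under median ratio scaling the region difference turned to -0.051 for B2m and -0.079 for Tap2. With the replicate block, 450 genes were called for region (303 higher in proximal, 147 in distal) in place of 0, Psmb9 among them. The same numbers deviated together (correlation 0.815), but with 2 pairs, and labels that do not explain the number, this does not show that they pair the libraries. Leaving out 1 library mixes region with number: 0 to 40 genes were then called for region (26 without distal 3, 40 without distal 2), and the differences spanned -0.45 to 0.37 for H2-K1, -0.51 to 0.42 for H2-D1, -0.29 to 0.44 for B2m, -1.56 to 1.33 for Tap1, -0.18 to 0.27 for Tap2, -0.21 to 0.10 for Tapbp, -0.16 to 1.14 for Psmb8 and -0.99 to 0.87 for Nlrc5. Psmb9 (0.90 to 1.23) and Psmb10 (0.67 to 0.84) stayed higher in proximal libraries.

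For number 3 against number 2, 5536 genes were called, 3672 with no filter on low values, 2101 with the number as the only term, and 0 to 362 without 1 library, where each fit has few degrees of freedom. The median over the class I genes was 1.13 under median ratio scaling, and the Psmb9 difference turned to 0.22 under quantile normalization and 0.10 under median ratio scaling. Without 1 library it spanned -0.81 to 0.35 for Psmb9 and -0.40 to 0.48 for Psmb10. Calls by number were lost for H2-K1 and H2-D1 with no filter and with the number as the only term, for H2-K1 under quantile normalization, and for Psmb8 with the number as the only term. B2m was called without the mean trend (adjusted p = 0.0234, limma) and Tap2 under median ratio scaling (adjusted p = 0.0208, limma). Without 1 library only Tap1 was called, in 2 of 4 such fits (without distal 3 and without proximal 3). Absolute depth is unknown, so the limit it sets on Nlrc5 and Psmb9 cannot be given.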

Other observations

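Values of some interferon response genes with other roles than presentation are given here. Irgm1, an immunity-related GTPase, measured 37.1 FPKM in distal 2, 288 in distal 3, 35.9 in proximal 2 and 483 in proximal 3. Gbp2, a guanylate-binding protein, measured 12.5, 51.1, 12.6 and 81.4 FPKM in the same order. Cxcl10, a ligand of the T cell chemokine receptor CXCR3, measured 423, 1125, 271 and 975 FPKM. Both number 3 libraries lay above both number 2 libraries for all 3 genes, with number differences of 3.32, 2.27 and 1.63 on the log2 scale (adjusted p = 0.000477, 0.000908 and 0.00542, limma). The 2 tested members of the list that were not called were Gbp7, another guanylate-binding protein (number difference 0.32), and Bst2, a surface protein that tethers viruses. Bst2 measured 40.8, 64.0, 71.1 and 76.4 FPKM. It was the only 1 of the 29 with both proximal libraries above both distal ones, beside 12.9% of all genes. These 5 genes were chosen after their values were seen.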
